A study of Mus musculus with 24 samples.

Results

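The 59 genes described here are the collagen chains, the laminin chains, the nidogens *Nid1* and *Nid2*, perlecan (*Hspg2*) and agrin (*Agrn*). They were taken by symbol from 48820 entries, the same in each of 4 count tables: every Col gene with an a chain number, every Lama, Lamb and Lamc gene numbered from 1 to 5, and the 4 single genes. By the type of protein they encode, 24 were basement membrane genes, 11 fibrillar chains, 9 fibril-associated collagens with interrupted triple helices (FACIT), 6 type VI chains, 4 transmembrane collagens and 3 short-chain collagens, and *Col26a1* and *Col28a1* were left as others.

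The 24 RNA-seq libraries came from C57BL/6 mice in 8 groups of 3. Mice called HSC-KO here were homozygous for floxed ligand genes (*Gdf2* fl/fl and *Bmp10* fl/fl) and carried *Lrat* Cre, whose promoter is active in hepatic stellate cells (HSCs). Their CD45-CD31+ endothelial cells (ECs) and CD45+Ly6C-F4/80+CD64+ liver macrophages were sorted at 8 to 10 weeks and whole liver was taken at 12 weeks, each beside libraries whose genotype the labels give only as control. Macrophages of the liver were also sorted at 8 to 10 weeks from mice with *Smad4* fl/fl and *Vav1* Cre, a Cre of blood-forming cells, beside controls labelled Smad4FF. The question put to these genes was which chains of the vessel-wall matrix differ when GDF2 and BMP10 from HSCs are lost, in ECs and in the liver as a whole.

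A basement membrane is a thin protein sheet under endothelium and epithelium, built from a laminin network and a type IV collagen network that nidogens and the proteoglycans perlecan and agrin tie together. Laminins are trimers of an alpha, a beta and a gamma chain, and type IV collagens are trimers of alpha chains encoded by gene pairs that lie head to head. The sinusoids of the healthy liver are known for lacking a continuous basement membrane, whereas most other capillaries have one. Fibrillar collagens such as types I and III form the cables of connective tissue and of scars, and in the liver are made mainly by HSCs and portal fibroblasts.

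Libraries held between 60911527 and 110879155 counts on genes. Levels are in CPM, a gene's counts scaled to a fixed library total after TMM, a correction for library composition, and levels of different genes are set side by side only per kilobase of exon (RPKM). A gene is said to rise or fall, or to be called, where edgeR's quasi-likelihood test gave an adjusted p below 0.05 over all genes tested and a log2 fold change beyond 1 in size. *Gdf2* fell in HSC-KO livers from 18.4, 9.38 and 22.5 CPM to 3.85, 2.12 and 2.63 CPM (adjusted p 0.013, edgeR, and 0.057 at most when control replicate 1 or 3 was left out), and *Smad4* fell in *Smad4*-deleted macrophages from 35.3 to 42.8 CPM to 12.6 to 17.2 CPM. Over 10 pan-endothelial markers, control ECs held 17038.5 to 17312 CPM and HSC-KO ECs 12362 to 13329.7 CPM, with 1 of 10 called lower. Over 7 macrophage markers, the macrophages held 25174 to 25311 CPM in controls and 18836.5 to 20469 CPM in HSC-KO with none called, and 26429.5 to 30992 CPM and 20449 to 24908 CPM in the *Smad4* comparison with 1 called lower. The part of these differences in the results was not tested. HSC-KO EC replicate 1 stood apart, with 2090.2 CPM over 6 sinusoidal markers against 247 and 203 CPM in the other HSC-KO EC libraries and at least 14891 CPM in controls. Values without it are given where it changed a call or moved a called fold by over 1.5 times. In bulk samples, fewer cells of a type and less RNA per cell cannot be told apart.

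In ECs, 41 of the 59 genes had enough counts to be tested, 13 rose and 3 fell. Of all 16053 genes tested in ECs, 13.7% were called, 7.68% higher and 6.01% lower. The basement membrane genes held 11 of the 13 that rose (20 of 24 tested, none called lower), and their median log2 fold change was 1.26 beside 0.00 over all genes. The groups did not overlap for 20 of the 41, beside 40.4% of all genes tested. The 7 tested fibrillar chains held none that rose and 1 that fell (*Col27a1*), with a median log2 fold change of -0.13. A gene with counts in only the higher group passes the count filter through that group, so these shares describe the tested genes and not all 59. The 13 higher calls were the same without HSC-KO replicate 1 and in every other alternative fit.

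The type IV chains were the most abundant of these transcripts in ECs. Per kilobase, *Col4a2* (76.5 RPKM) and *Col4a1* (54.7 RPKM) led the list in control ECs, and in HSC-KO ECs they stood at 199 and 151 RPKM. *Col4a1*, which encodes the main type IV chain of all basement membranes, measured 452, 379 and 394 CPM in control ECs and 1085, 1136 and 1157 CPM in HSC-KO ECs. *Col4a2*, its partner in the trimer, measured 579, 443 and 497 CPM against 1267, 1235 and 1450.1 CPM. All HSC-KO libraries lay above all controls for both, and both rose (log2 fold change 1.46 ± 0.15 and 1.38 ± 0.17, standard error, adjusted p 0.00071 and 0.0016, edgeR). The ratio of *Col4a1* to *Col4a2* per kilobase was 0.692 to 0.758 in control ECs and 0.708 to 0.816 in HSC-KO ECs, so both chains moved in nearly the same proportion.

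The second pair encodes the chains of the glomerular and alveolar type of basement membrane. *Col4a3* measured 2.34, 2.20 and 2.62 CPM in control ECs and 20.1, 27.4 and 22.6 CPM in HSC-KO ECs (log2 fold change 3.29 ± 0.19, adjusted p 7.1e-05, edgeR). *Col4a4* measured 1.89, 2.23 and 4.44 CPM against 13.8, 23.3 and 18.6 CPM (log2 fold change 2.70 ± 0.37, adjusted p 0.0024). Both rose with no overlap between groups. The exons of *Col4a3* share 5.65% of their length with a non-coding gene on the opposite strand. Per kilobase, *Col4a3* and *Col4a4* together made up 0.278% to 0.530% of type IV transcripts in control ECs and 0.974% to 1.44% in HSC-KO ECs. *Col4a5*, whose product is the third chain of that trimer, had at most 4 counts in a control EC library and at most 8 in an HSC-KO EC library, so it was not tested. *Col4a6* also had too few counts for a test.

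Each pair shares its start region, shown here because its 2 genes moved together in ECs. *Col4a1* (minus strand, chr8:11198423-11312826 in GRCm38) and *Col4a2* (plus strand, chr8:11312805-11449287) overlap by the 22 bases with which both transcripts begin, and *Col4a4* (minus strand, chr1:82448423-82586849) and *Col4a3* (plus strand, chr1:82586921-82722059) have 71 bases between their starts. These coordinates are from GENCODE vM21, and the starts of *Col4a1*, *Col4a2* and *Col4a4* are the same in RefSeq. No RefSeq window was available for *Col4a3*. The sequences are from RefSeq, build GRCm38.p6, written 5′ to 3′ on the strand named, with GGGCGG in capitals where it occurs on either strand.
*Col4a1* and *Col4a2*, chr8:11312805-11312826, plus strand: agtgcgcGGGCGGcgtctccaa
*Col4a4* and *Col4a3*, chr1:82586850-82586920, minus strand: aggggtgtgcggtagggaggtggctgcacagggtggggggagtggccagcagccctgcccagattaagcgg
The shared first bases of *Col4a1* and *Col4a2* hold 1 GGGCGG, the letters of a GC box. Searched beside it, on both strands, were CCAAT, the box of that name, then GGCGCC, a GC-rich element known for SMADs of the BMP branch, and last CAGAC, a short element known for SMADs in general. The 71 bases between *Col4a4* and *Col4a3* hold none of these 4 motifs, and of 32851 mouse windows of that length before a start, 20.7% hold GGGCGG. Of the 43 genes described here with a window of 250 bases before the start, 26 hold GGGCGG beside 32.7% of all windows. CCAAT occurs in 14 beside 33.8%. The letters GGCGCC occur in 8 beside 9.6%. Of the same 43, 19 hold CAGAC beside 42.2%. A match of letters is a description of the window and says nothing of binding.

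Of 9 laminin chains tested in ECs, 4 rose and none fell. *Lamb1*, which encodes the beta1 chain, measured 1.27, 1.37 and 0.448 CPM in control ECs and 8.58, 49.7 and 41.9 CPM in HSC-KO ECs. It rose (log2 fold change 5.02 ± 0.74, adjusted p 0.0034, edgeR), and HSC-KO replicate 1, the library that stood apart, was the lowest of the HSC-KO libraries but still above every control. *Lamc1*, the gamma1 chain of most laminins, measured 34.99, 34.94 and 25.7 CPM against 112, 150.0 and 159 CPM (log2 fold change 2.14 ± 0.19, adjusted p 0.00036). *Lama5*, an alpha chain of mature endothelial and epithelial basement membranes, measured 33.2, 29.5 and 32.7 CPM against 68.0, 70.3 and 91.6 CPM (log2 fold change 1.27 ± 0.15, adjusted p 0.0014), and *Lama3*, an alpha chain better known from epithelia, measured 7.49, 7.66 and 6.31 CPM against 18.7, 17.2 and 15.1 CPM (log2 fold change 1.25 ± 0.16, adjusted p 0.0019, edgeR). All 4 chains were higher in every HSC-KO library than in every control.

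The other endothelial laminin chains were not called. *Lama4*, the alpha chain that endothelium makes from early on, measured 126, 157 and 131 CPM in control ECs and 79.3, 94.4 and 115 CPM in HSC-KO ECs, lower in all HSC-KO libraries with a log2 fold change of -0.52 ± 0.17 and an adjusted p of 0.071 (edgeR). *Lamb2*, the beta2 chain, measured 174, 135 and 159 CPM against 210.0, 172 and 243 CPM, with overlapping groups (log2 fold change 0.42 ± 0.17, adjusted p 0.13). *Lama1* and *Lamc3* were under 2 CPM in every EC library, and neither was called, although *Lama1* was called lower without control replicate 3 (log2 fold change -2.74, adjusted p 0.043, edgeR). *Lamb3* had no counts in any EC library.

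Shares of paired chains show the change of composition per kilobase. *Lamb1* made up 0.172% to 0.623% of the sum of *Lamb1* and *Lamb2* in control ECs and 2.45%, 15.05% and 9.56% in HSC-KO ECs, so *Lamb2* remained the larger beta chain in every EC library. *Lama5* made up 16.7% to 21.9% of *Lama4* and *Lama5* in controls and 44.1% to 47.6% in HSC-KO ECs. *Nid2* made up 2.42% to 2.66% of the nidogens against 20.2% to 26.9%. The EC groups did not overlap in any of the 3 shares.

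**Figure D1:**
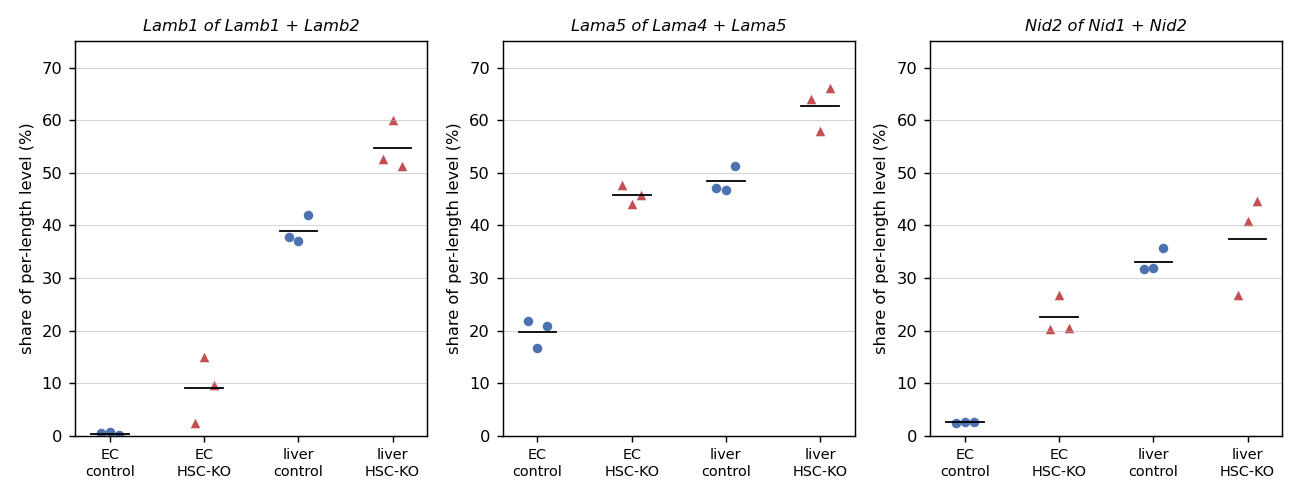
Share of 1 chain of a pair in the summed per-kilobase level of both, in percent, for *Lamb1*, *Lama5* and *Nid2* (points, libraries, bars, means of 3; circles, control, triangles, HSC-KO). In ECs the HSC-KO libraries lie above the controls in all 3 panels, and in whole liver they do so for *Lamb1* and *Lama5* but overlap for *Nid2*.

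Of the linking proteins, *Nid2* rose and the others did not. *Nid2*, which encodes nidogen 2, measured 4.22, 5.40 and 4.64 CPM in control ECs and 38.6, 57.0 and 40.4 CPM in HSC-KO ECs (log2 fold change 3.25 ± 0.21, adjusted p 0.00011, edgeR). Its exons share up to 8.45% of their length with a gene on the opposite strand, and the strand setting of the counting is not stated. *Nid1* measured 229, 277 and 228 CPM against 204, 208 and 209 CPM (log2 fold change -0.24 ± 0.13, adjusted p 0.26), and *Hspg2* had means of 129 ± 18.9 and 167 ± 20.5 CPM (adjusted p 0.15). *Agrn* was higher in every HSC-KO library, at 151, 141 and 169.9 CPM against 122, 97.4 and 83.0 CPM, but its log2 fold change of 0.62 ± 0.17 was below the cut-off of 1 (adjusted p 0.038). *Nid1*, *Hspg2* and *Agrn* were thus abundant in control ECs already, and *Nid2* was the scarce one.

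Both multiplexins, the basement membrane collagens with long chains of sugars, rose. *Col15a1* had 0, 39 and 0 counts in control ECs, or 0, 0.631 and 0 CPM, and 82.5, 158 and 174 CPM in HSC-KO ECs (log2 fold change 9.49 ± 1.20, adjusted p 0.0017, edgeR). The fold is loosely set, since control counts came from 1 library, and leaving out single libraries gave 8.83 to 16.45, the highest without control replicate 2. *Col15a1* went from among the scarcest of these transcripts to 21.8 RPKM, behind only *Col4a2*, *Col4a1*, *Lamb2* and *Nid1* in HSC-KO ECs. *Col18a1*, the precursor of endostatin, measured 1.56, 1.10 and 0.543 CPM against 10.3, 6.52 and 5.44 CPM (log2 fold change 2.79 ± 0.45, adjusted p 0.0047). *Col18a1* is known as a hepatocyte transcript, and stood at 1229 CPM in control liver. The 6 hepatocyte markers summed to 54.8 to 108 CPM in control ECs and 40.5 to 61.1 CPM in HSC-KO ECs, with 1 of 6 called lower, and their part in the *Col18a1* values was not tested.

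**Figure D2:**
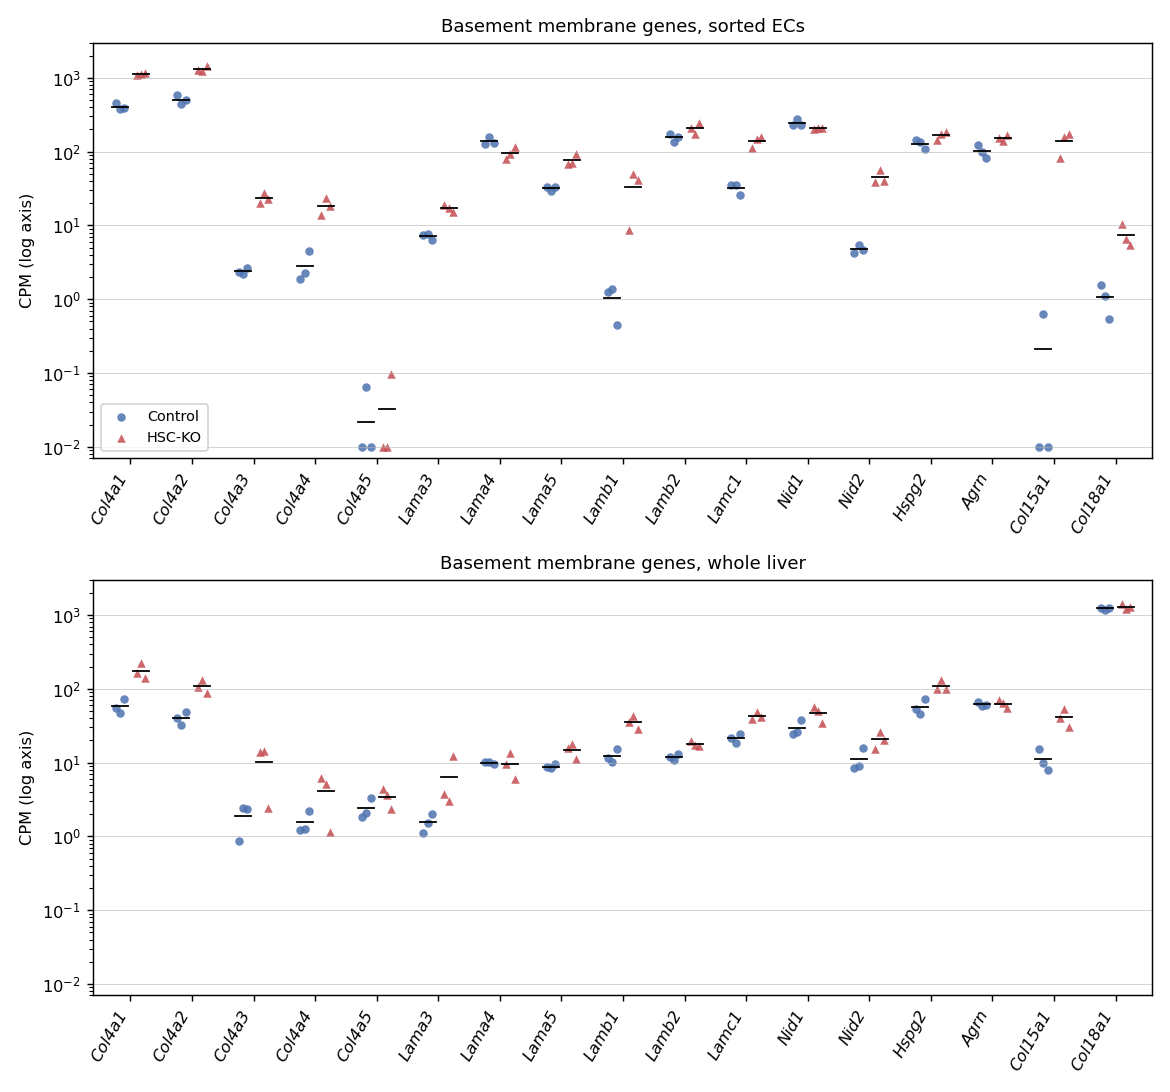
Levels of 17 basement membrane genes in CPM (log axis, a level of 0 drawn at 0.01) in sorted ECs above and whole liver below, with each library as a point (circles, control, triangles, HSC-KO) and the mean of 3 as a bar. *Col15a1*, *Lamb1*, *Col4a3*, *Nid2*, *Col18a1* and *Col4a4* stand far apart between the groups in ECs, and *Col18a1* is by far the highest of them in whole liver, at the same level in both groups.

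Outside the basement membrane, *Col8a1* and *Col28a1* rose in ECs. *Col8a1*, a short-chain collagen of vessel walls, measured 2.32, 7.71 and 3.07 CPM in control ECs and 43.0, 24.2 and 29.3 CPM in HSC-KO ECs (log2 fold change 2.89 ± 0.47, adjusted p 0.0053, edgeR, and 3.58 without control replicate 2). *Col28a1*, a rare collagen known from peripheral nerve, had no counts in 3 control EC libraries and 137, 322 and 354 counts in HSC-KO ECs, at least 70.6-fold higher against a floor of 3 counts per control library. Both were higher in all HSC-KO libraries.

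The transmembrane collagen *Col13a1*, a cell-surface protein of adhesion sites, went the other way. It measured 262, 205 and 238 CPM in control ECs, the third highest of these transcripts per kilobase, and 76.1, 34.2 and 56.3 CPM in HSC-KO ECs (log2 fold change -2.08 ± 0.28, adjusted p 0.0023, edgeR). *Col17a1*, the transmembrane collagen of hemidesmosomes, fell from 1.64, 2.18 and 2.97 CPM to 0.276, 0 and 0.0489 CPM, a call that was lost without any 1 control or without HSC-KO replicate 3 (adjusted p 0.023, at most 0.084 over the alternatives). *Col27a1*, a fibrillar chain of cartilage, fell from 12.1, 14.1 and 12.97 CPM to 4.59, 1.38 and 1.41 CPM (log2 fold change -2.40 ± 0.48, adjusted p 0.012). HSC-KO replicate 1 was closest to the controls for *Col13a1*, *Col17a1* and *Col27a1* alike, and without it the log2 fold changes of *Col17a1* and *Col27a1* were -6.38 and -3.22.

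The classical fibrillar chains were scarce in ECs and were not called. *Col1a1*, *Col1a2* and *Col3a1*, the chains of types I and III collagen, summed to 6.94, 5.32 and 1.00 CPM in control ECs and 5.03, 3.94 and 1.48 CPM in HSC-KO ECs. Their log2 fold changes were 0.26 ± 0.73, -0.13 ± 0.77 and -0.62 ± 0.78, with adjusted p of 0.85, 0.93 and 0.64 (edgeR). The standard errors of these 3 chains were wide beside the cut-off of 1. No fibrillar chain reached an unadjusted p under 0.05 in the higher direction, and DESeq2 called none higher. Over 12 stellate markers the EC libraries held 167 to 235 CPM in controls and 130.5 to 140.4 CPM in HSC-KO, with 2 of 11 tested called lower. Over 7 fibroblast markers they held 14.8 to 60.3 CPM and 22.7 to 40.3 CPM, with 4 of 6 tested positive and *Dpt* called higher (log2 fold change 2.16 ± 0.45, adjusted p 0.013, edgeR), a call lost without control replicate 1 or 3 (adjusted p up to 0.053). Over the smooth muscle and pericyte markers they held 9.83 to 19.2 CPM and 10.8 to 19.4 CPM, with 5 of 6 tested positive and *Cspg4*, which had no counts in control ECs, called higher, but not without HSC-KO replicate 2 (adjusted p up to 0.059). The part of these cells in the EC values was not tested.

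*Col5a2*, a minor chain of type V collagen fibrils, was the one fibrillar chain other than *Col27a1* above 10 CPM in ECs. It measured 42.1, 35.3 and 30.2 CPM in control ECs and 70.2, 17.7 and 14.9 CPM in HSC-KO ECs, so replicate 1 was above and the other HSC-KO libraries below every control (log2 fold change -0.07 ± 0.55, adjusted p 0.95, edgeR). Without HSC-KO replicate 1 it was called lower, with a log2 fold change of -1.14 and an adjusted p of 0.0089. The 6 type VI chains, the beaded filaments of interstitial matrix, summed to at most 4.82 CPM in any EC library, and none of the 3 tested was called, reached an unadjusted p under 0.05 or was called by DESeq2.

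In whole liver, 49 of the 59 genes were tested, 7 rose and 1 fell. Of 17118 genes tested there, 2.48% were called, 1.03% higher and 1.45% lower. Those that rose were *Col4a1*, *Col4a2*, *Lamb1* and *Col15a1* of the basement membrane (24 of 24 tested), *Col6a1* and *Col6a2* of type VI, and *Col28a1*. The one that fell was *Col13a1*. The groups did not overlap for 25 of the 49, beside 19.7% of all genes tested. Of 9 fibrillar chains tested none was called by edgeR, 5 had an unadjusted p under 0.05 in the higher direction, and DESeq2 called 1. The liver counts were less stable than those of ECs, at 3 to 10 higher when single libraries were left out, with 3 without control replicate 2, 4 without control replicate 1 or HSC-KO replicate 1, and 10 without HSC-KO replicate 3. DESeq2 called 12 higher and 2 lower.

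*Col4a1* measured 55.2, 47.2 and 73.1 CPM in control livers and 164, 226 and 138 CPM in HSC-KO livers (log2 fold change 1.59 ± 0.23, adjusted p 0.014, edgeR). *Col4a2* measured 40.3, 31.9 and 48.8 CPM against 108, 131 and 88.0 CPM (log2 fold change 1.43 ± 0.20, adjusted p 0.013). Both groups were apart for both chains, and of the fits that left out 1 library, both calls were lost without control replicate 1, control replicate 2 or HSC-KO replicate 1 (adjusted p up to 0.067 and 0.061).

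*Lamb1* measured 11.7, 10.3 and 15.2 CPM in control livers and 35.1, 43.3 and 28.9 CPM in HSC-KO livers (log2 fold change 1.53 ± 0.20, adjusted p 0.010, edgeR). *Lamc1* was higher in all HSC-KO livers, at 38.6, 48.7 and 41.7 CPM against 21.6, 18.6 and 24.6 CPM, with a log2 fold change of 0.99 ± 0.15 just under the cut-off (adjusted p 0.016). It was called higher in 6 of 12 alternative fits, among them those without control replicate 3, HSC-KO replicate 1 or HSC-KO replicate 3 (log2 fold changes of 1.11, 1.06 and 1.01). *Col15a1* measured 15.4, 9.80 and 7.86 CPM against 40.7, 53.0 and 30.2 CPM (log2 fold change 1.90 ± 0.30, adjusted p 0.018). None of these groups overlapped, and the *Col15a1* call was lost without control replicate 2, control replicate 3 or HSC-KO replicate 1 (adjusted p up to 0.094).

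Type VI collagen, which was near absent in ECs, rose in 2 of its chains in liver. *Col6a1* measured 13.3, 10.3 and 15.9 CPM in control livers and 32.1, 39.3 and 29.8 CPM in HSC-KO livers (log2 fold change 1.36 ± 0.19, adjusted p 0.012, edgeR), and *Col6a2* had means of 7.87 ± 1.10 and 23.6 ± 4.42 CPM (log2 fold change 1.59 ± 0.18, adjusted p 0.0059). *Col6a3*, the large chain of the same trimer, measured 16.1, 9.43 and 18.9 CPM against 30.0, 35.2 and 19.8 CPM and was not called (log2 fold change 0.94 ± 0.30, adjusted p 0.20). The *Col6a2* call held in all 12 alternative fits, and of the fits that left out 1 library, the *Col6a1* call was lost without control replicate 1 (adjusted p up to 0.052).

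*Col1a1*, *Col1a2* and *Col3a1*, the fibrillar chains of scar tissue, were higher in every HSC-KO liver than in every control, without passing edgeR's test. *Col3a1* measured 48.0, 18.6 and 43.8 CPM in control livers and 84.6, 104 and 60.8 CPM in HSC-KO livers (log2 fold change 1.18 ± 0.36, adjusted p 0.18, edgeR), and was the 1 fibrillar chain that DESeq2 called higher (adjusted p 0.0068). *Col1a1* measured 12.4, 6.01 and 10.2 CPM against 17.4, 23.8 and 13.2 CPM (log2 fold change 0.93 ± 0.31, adjusted p 0.23), and *Col1a2* 21.5, 10.1 and 20.6 CPM against 31.1, 37.4 and 25.6 CPM (0.85 ± 0.29, adjusted p 0.24). Control replicate 2 was the lowest library for all 3 chains.

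Summed fibroblast and stellate markers were also higher in HSC-KO livers, though not each marker. Over 7 fibroblast markers, control livers held 124 to 161 CPM and HSC-KO livers 243 to 295 CPM. The sum was mostly *Dcn* (means of 121 and 225 CPM), 1 of 7 was called higher (*Lum*, a call lost without any 1 control or HSC-KO replicate 1, adjusted p up to 0.15), and 3 had positive and 3 negative log2 fold changes with a median of 0.00. Over 12 stellate markers the ranges were 324 to 419 and 444 to 551 CPM, with none called, 9 positive and 3 negative log2 fold changes and a median of 0.40. Smooth muscle and pericyte markers overlapped, at 61.5, 47.9 and 55.8 CPM in control and 59.6, 74.6 and 34.6 CPM in HSC-KO livers. None of them was called, and 4 had positive and 3 negative log2 fold changes. Pan-endothelial markers were at 426 to 519.8 CPM and 406 to 476 CPM, with 1 of 10 called lower. The sinusoidal markers were at 299.9 to 419.6 CPM in control and 25.4 to 33.1 CPM in HSC-KO livers, with 6 of 6 called lower, and the macrophage markers at 208 to 331 CPM and 68.5 to 109 CPM, with 5 of 7 called lower. The part of cell composition in these differences was not tested.

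*Col28a1* had 5, 0 and 0 counts in control livers and 41, 66 and 61 counts in HSC-KO livers. All HSC-KO libraries were above the controls, but the call (adjusted p 0.048, edgeR) held in only 3 of 12 alternative fits and, of those that left out a library, only without control replicate 1, and its fitted fold change depends on the prior count. *Col13a1* fell from 6.09, 9.12 and 7.54 CPM to 1.17, 0.797 and 2.45 CPM (log2 fold change -2.37 ± 0.42, adjusted p 0.030), a call held in 6 of 12 alternative fits and lost without any 1 control or without HSC-KO replicate 1 or 2 (adjusted p up to 0.13). Without HSC-KO replicate 3 its log2 fold change was -2.95.

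4 genes had their odd value in the same liver library. In HSC-KO replicate 3, the only liver library with very little *Xist*, a transcript of the inactive X chromosome (-1.90 log2 CPM against 8.24 to 9.47 in the others), *Col4a3* stood at 2.47 CPM beside 13.9 and 14.2 CPM in the other HSC-KO livers, and *Col4a4* at 1.16 beside 6.16 and 5.06 CPM. *Lama3* stood at 12.5 beside 3.78 and 2.98 CPM and *Col27a1* at 38.5 beside 10.7 and 9.81 CPM. None of the 4 was called by edgeR over all 6 livers, whereas DESeq2 called *Col4a3* and *Lama3* higher (adjusted p 0.00048 and 0.0019), and with *Xist* as a covariate edgeR called *Col4a3* and *Col4a4* higher (adjusted p 0.0087 and 0.031). Without that library *Col4a3* and *Col4a4* were called higher, with log2 fold changes of 2.91 and 1.84 and adjusted p of 0.016 and 0.034 (edgeR), and the number of fibrillar chains called stayed at 0. Because *Xist* set that library alone apart, the covariate fit nearly repeats this one and is not independent of it. *Xist* also varied in ECs, at 4.44, -3.32 and -3.32 log2 CPM in controls and 4.67, -3.32 and 5.42 in HSC-KO. Macrophages of the HSC-KO comparison held -3.32, -3.32 and 4.40 in controls and -3.32, 6.24 and 6.45 in HSC-KO.

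*Hspg2* (means of 57.3 ± 13.6 and 109.7 ± 18.3 CPM, SD, n = 3 each, log2 fold change 0.94 ± 0.20, adjusted p 0.058), *Lamb2* (11.8 ± 1.09 and 17.9 ± 1.30 CPM, adjusted p 0.061) and *Lama5* (8.83 ± 0.550 and 14.9 ± 3.43 CPM, adjusted p 0.10) were higher in every HSC-KO liver but were not called by edgeR. *Nid1*, *Nid2*, *Col5a1*, *Col5a3* and *Col14a1*, a FACIT collagen, were not called either, with adjusted p of 0.16 to 0.26. *Lamc3* went the other way, at 3.10, 5.56 and 7.59 CPM in control livers and 1.85, 2.62 and 1.24 CPM in HSC-KO livers. It was not called by edgeR (log2 fold change -1.51 ± 0.40, adjusted p 0.13), whereas DESeq2 called it lower (adjusted p 0.0054). *Agrn*, at 62.2 ± 4.19 and 63.3 ± 8.51 CPM, and *Lama4*, at 9.97 ± 0.391 and 9.71 ± 3.83 CPM, had log2 fold changes of 0.03 and -0.04. *Col18a1*, the highest of these transcripts in liver per kilobase (175 RPKM in controls), measured 1263, 1166 and 1259 CPM against 1422, 1220.3 and 1271 CPM, with a log2 fold change of 0.09 ± 0.12 and an adjusted p of 0.87.

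**Figure D3:**
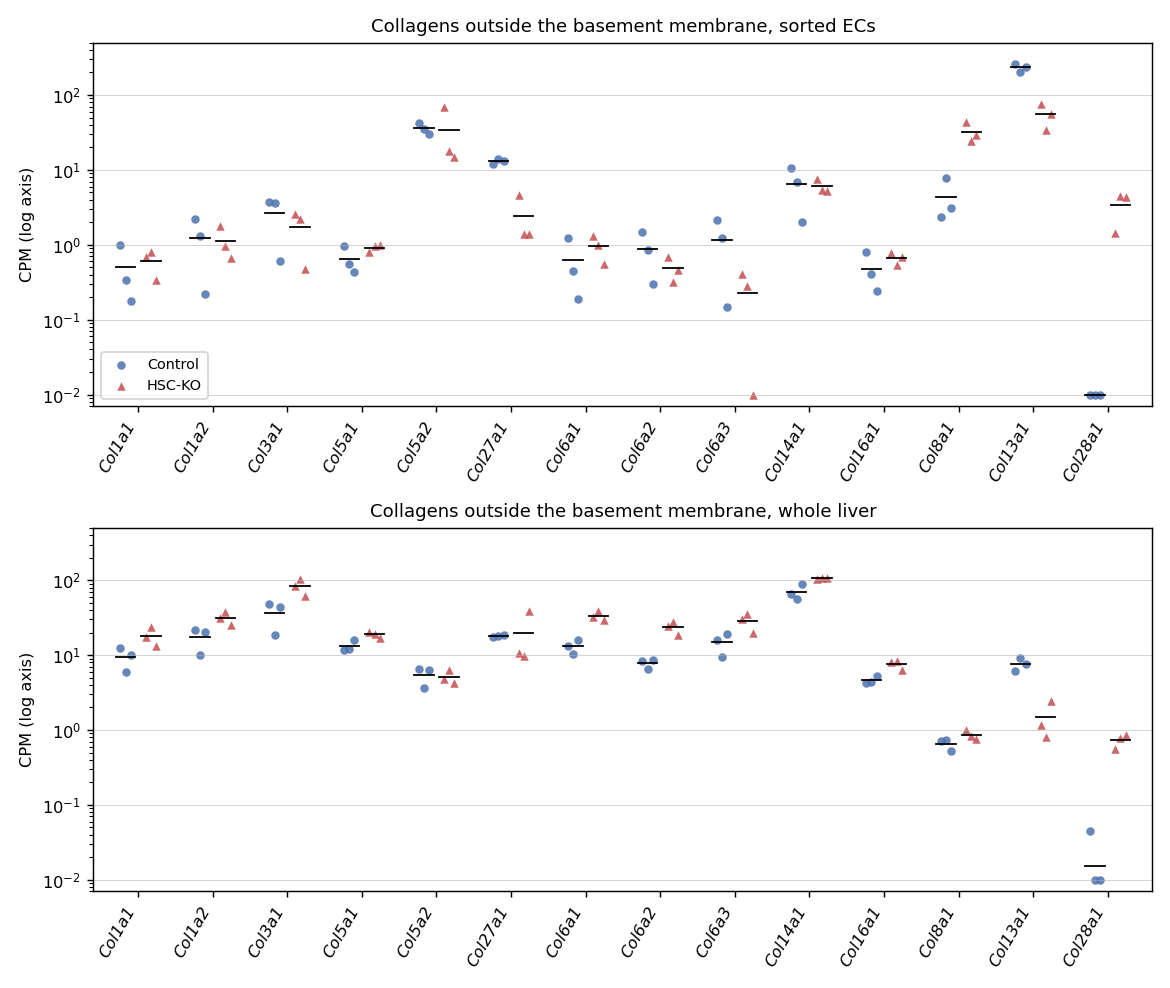
Levels of 14 collagen genes outside the basement membrane in CPM (log axis, a level of 0 drawn at 0.01) in sorted ECs above and whole liver below (points, libraries, bars, means of 3; circles, control, triangles, HSC-KO). *Col13a1* is lower in HSC-KO in both, *Col8a1* is higher in ECs, and the type I, III and VI chains are far lower in ECs than in liver.

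ECs and whole liver were then compared directly, by testing whether the HSC-KO effect differed between them in a fit over their 12 libraries. Of 51 genes tested, 6 had a larger log2 fold change in ECs and 1 a smaller one, beside 3.85% and 2.62% of all 19011 genes (6.47% in all). ECs and livers differed in age (8 to 10 against 12 weeks) and in RNA extraction, so the test compares effects within each and not levels between them. The 6 were *Col15a1* (difference 7.62 ± 1.18, adjusted p 0.0025, edgeR), *Lamb1* (3.53 ± 0.78, adjusted p 0.018), *Col18a1* (2.75 ± 0.47, adjusted p 0.0043), *Col8a1* (2.52 ± 0.58, adjusted p 0.022), *Nid2* (2.38 ± 0.38, adjusted p 0.0032) and *Lamc1* (1.19 ± 0.25, adjusted p 0.015). The difference for *Col8a1* was lost in 4 of 17 alternative fits, all leaving out 1 liver library, and those for the other 5 in none. Without control EC replicate 2 the differences for *Col15a1* and *Col8a1* were 14.36 and 3.21.

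The genes that rose in both were *Col4a1*, *Col4a2*, *Lamb1*, *Col15a1* and *Col28a1*, and *Col13a1* fell in both. For *Col4a1* and *Col4a2* the EC effect minus the liver effect was -0.09 (95% interval -0.66 to 0.49) and -0.02 (-0.57 to 0.54), and neither was called. For *Col13a1* the difference was 0.32 (-0.69 to 1.34) and was not called. These intervals use a normal approximation, which makes them too narrow with so few libraries. No gene was called in opposite directions in ECs and liver.

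*Col6a2* was the one with a smaller effect in ECs (difference -2.37 ± 0.62, adjusted p 0.042, edgeR). It measured 1.48, 0.857 and 0.299 CPM in control ECs and 0.690, 0.321 and 0.465 CPM in HSC-KO ECs, against 6.62 to 27.4 CPM over the livers. That call held in 4 of 17 alternative fits (adjusted p up to 0.10), and without control EC replicate 1 the difference was -1.76. For *Col3a1* the difference was -1.75 (-3.56 to 0.05), for *Col1a1* -0.64 (-2.11 to 0.83) and for *Col1a2* -0.94 (-2.60 to 0.71), with intervals by the same normal approximation. None was called (adjusted p 0.30, 0.72 and 0.60, edgeR).

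**Figure D4:**
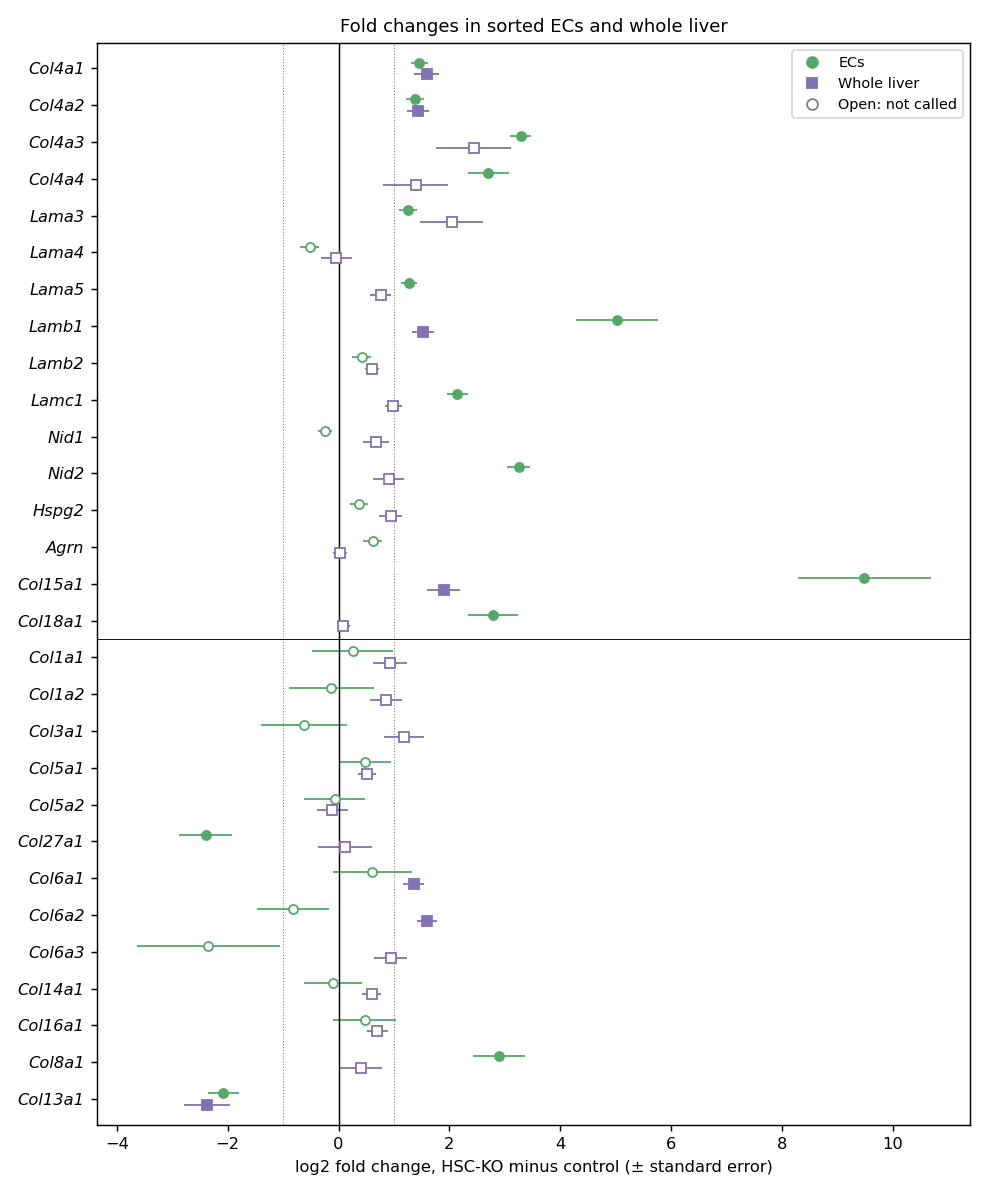
Log2 fold change of HSC-KO against control for 16 basement membrane genes (above the line) and 13 other collagens (below it), in ECs (circles) and whole liver (squares), with standard errors. Filled symbols are called and open ones are not, and dotted lines mark a log2 fold change of 1 in either direction. *Col4a1* and *Col4a2* have nearly the same value in both, whereas *Lamb1*, *Nid2*, *Col15a1* and *Col18a1* lie far to the right in ECs.

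The enzymes and receptors that act on these chains were taken as 2 lists. Of 30 genes of collagen folding, cross-linking and trimming, 26 were tested in ECs, 6 rose and 4 fell, beside 7.68% higher and 6.01% lower over all genes. Most went down, with 8 positive and 18 negative log2 fold changes and a median of -0.36. At an unadjusted p under 0.05 (edgeR), 6 were higher and 10 lower. *Serpinh1*, the collagen chaperone HSP47, measured 85.9, 116 and 133 CPM in control ECs and 336, 712 and 507 CPM in HSC-KO ECs (log2 fold change 2.21 ± 0.30, adjusted p 0.0023, edgeR). *Bmp1*, a procollagen protease, measured 1.34, 0.744 and 0.475 CPM against 39.5, 54.0 and 70.8 CPM (5.99 ± 0.44, adjusted p 0.00018), and its relative *Tll1* had no counts in controls and 1.03, 1.79 and 1.93 CPM in HSC-KO ECs, at least 32.6-fold higher against 3 counts per library. *Plod2*, a lysyl hydroxylase, *Colgalt2*, a collagen glycosyltransferase, and *P3h4*, of the collagen-modifying complex of the endoplasmic reticulum, also rose, the last in only 5 of 12 alternative fits, and only without control replicate 2 among those that left out a library.

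Those that fell included cross-linking enzymes. *Loxl2* measured 104, 119.6 and 147 CPM in control ECs and 41.7, 39.2 and 43.3 CPM in HSC-KO ECs (log2 fold change -1.58 ± 0.15, adjusted p 0.00053, edgeR), and *Loxl3* had means of 57.8 ± 6.95 and 13.1 ± 3.88 CPM (-2.14 ± 0.23, adjusted p 0.00087). *Adamts14*, a procollagen protease, and *Crtap*, a subunit of the prolyl 3-hydroxylase complex, fell too, *Crtap* in 9 of 12 alternative fits and not without control replicate 1 or HSC-KO replicate 2. In liver, where 1.03% of all genes rose, 27 of the 30 were tested and 2 rose, *Serpinh1* and *Pcolce*, with adjusted p of 0.040 and 0.043 (edgeR), each called in 4 of 12 alternative fits, and only without HSC-KO replicate 3 among those that left out a library.

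Of 15 receptors of collagens and laminins, 12 were tested in ECs, 3 rose and 1 fell, beside the same 7.68% and 6.01%. *Itga6*, the alpha chain of laminin-binding integrins, measured 19.8, 19.0 and 14.6 CPM in control ECs and 164, 216 and 525 CPM in HSC-KO ECs (log2 fold change 4.08 ± 0.46, adjusted p 0.0010, edgeR). *Itga3*, of another laminin-binding integrin, had means of 3.70 ± 0.505 and 43.9 ± 11.2 CPM (3.57 ± 0.25, adjusted p 0.00013), and *Bcam*, a receptor of the laminin alpha5 chain, had 54.5 ± 13.6 and 385 ± 46.7 CPM (2.82 ± 0.22, adjusted p 0.00022). Each of the 3 was higher in all HSC-KO EC libraries. Of the list's other laminin receptors, *Dag1*, which encodes dystroglycan, was lower in all of them without being called (195.9, 169 and 162 CPM against 149.5, 105 and 111.3 CPM, log2 fold change -0.53 ± 0.17, adjusted p 0.067), and *Itgb1* and *Itgb4* were not called (adjusted p 0.12 and 0.29). *Lair1*, a collagen receptor of leukocytes, fell from 40, 29 and 28 counts to none, at least 10.6-fold lower against a floor of 3 counts per library. Beside it the 7 macrophage markers summed to 46.1 to 61.7 CPM in control ECs and 4.19 to 5.95 CPM in HSC-KO ECs, with 4 of 6 tested called lower, and their part in the change of *Lair1* was not tested. In liver 13 receptors were tested, none fell, and, beside 1.03% higher over all genes, *Itga6* (log2 fold change 2.35 ± 0.20, adjusted p 0.0014) and *Ddr2*, a receptor of fibrillar collagens (1.10 ± 0.15, adjusted p 0.011), rose, *Ddr2* not without HSC-KO replicate 1 (adjusted p up to 0.061).

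In liver macrophages all of these transcripts together made up little of the library. They summed to 65.0 to 95.9 CPM in controls and 84.6 to 120.4 CPM in HSC-KO macrophages. Of 33 genes tested, 2 rose and 1 fell, beside 11.7% of all 16337 genes tested (6.32% higher and 5.34% lower). *Nid2* was the highest of them in control macrophages per kilobase (5.43 RPKM), at 38.2, 28.4 and 17.7 CPM against 14.8, 9.71 and 19.6 CPM in HSC-KO, with overlapping groups and no call (log2 fold change -0.94 ± 0.33, adjusted p 0.093, edgeR). Without control replicate 3 it was called lower (-1.18, adjusted p 0.048).

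*Col14a1*, a FACIT collagen that decorates type I fibrils, measured 1.28, 4.72 and 3.02 CPM in control macrophages and 43.3, 31.9 and 37.1 CPM in HSC-KO macrophages (log2 fold change 3.64 ± 0.44, adjusted p 0.0015, edgeR). *Col15a1* had 7, 28 and 0 counts in controls and 344, 427 and 293 counts in HSC-KO macrophages (log2 fold change 4.74 ± 0.96, adjusted p 0.013, and 6.35 without control replicate 2). Both rose in all 12 alternative fits. *Lamb2* fell from 7.12, 8.60 and 5.63 CPM to 3.32, 2.17 and 2.23 CPM (log2 fold change -1.47 ± 0.28, adjusted p 0.0094).

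Markers of other cells were present in these sorts. Over the 10 pan-endothelial markers, control macrophages held 350.2 to 560.4 CPM and HSC-KO macrophages 57.5 to 125 CPM, with 3 of 10 called lower, and without *Cdh5* and *Eng*, a change made after the values were seen, 52.7 to 243 CPM and 11.3 to 54.8 CPM. The fibroblast markers held 4.99 to 34.3 CPM in controls and 34.5 to 89.5 CPM in HSC-KO macrophages, with 1 of 4 tested called higher. Cholangiocyte markers held 0.284 to 1.20 CPM in controls and 1.49 to 2.82 CPM in HSC-KO macrophages, with 1 of 3 tested called higher. The part of all these cells in the values of *Col14a1*, *Col15a1* and *Lamb2* was not tested. *Col4a1* was at 0.532, 7.32 and 4.18 CPM in controls beside 52.7, 243 and 170.4 CPM of the 8 markers. In HSC-KO macrophages it was at 1.86, 0.577 and 3.33 CPM beside 13.4, 11.3 and 54.8 CPM. The part of endothelial cells in these values was not tested. *Col4a1* was not called (log2 fold change -1.06 ± 0.90, adjusted p 0.46, edgeR), nor was *Col4a2* (adjusted p 0.45).

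*Col1a1*, *Col1a2* and *Col3a1* were each at or below 3.82 CPM in every macrophage library of this comparison. HSC-KO replicate 3 had the highest value for all 3 chains, at 1.16, 3.43 and 3.82 CPM. None was called by edgeR (adjusted p 0.28, 0.075 and 0.10), whereas DESeq2 called *Col1a2* and *Col3a1* higher among 6 such genes.

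In *Smad4*-deleted macrophages, 37 genes were tested and the 2 that rose were again *Col14a1* and *Col15a1*, beside 5.43% of all 17517 genes called (2.76% higher and 2.67% lower). None fell by edgeR or DESeq2, and 2 had an unadjusted p under 0.05 in the lower direction. *Col14a1* measured 4.14, 2.72 and 4.77 CPM in controls and 18.9, 13.9 and 15.5 CPM in *Smad4*-deleted macrophages (log2 fold change 2.06 ± 0.25, adjusted p 0.0030, edgeR). *Col15a1* had 8, 0 and 8 counts against 136, 89 and 131 counts (4.49 ± 0.85, adjusted p 0.020), a call lost without control replicate 1 or 3 or *Smad4*-deleted replicate 1 or 3 (adjusted p up to 0.082). Fibroblast markers held 42.4 to 61.8 CPM in these controls and 53.2 to 74.5 CPM in *Smad4*-deleted macrophages, with 1 of 6 tested called higher (*Lum*, a call lost without any 1 of the 6 libraries, adjusted p up to 0.14), and cholangiocyte markers 1.27 to 1.45 CPM and 5.81 to 8.80 CPM, with 1 of 4 called higher (*Krt7*). Their part in the values of *Col14a1* and *Col15a1* was not tested. This comparison has its own controls and shares no library with the other.

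Type IV chains were low in 1 control library of the *Smad4* sorts. Control replicate 2 held 7.73 CPM of *Col4a1* and 11.0 CPM of *Col4a2*, beside 39.8 and 29.8 CPM and 41.8 and 33.7 CPM in the other controls, and 729 CPM of pan-endothelial markers beside 2205 and 2069.6 CPM. Neither chain was called (adjusted p 0.83 and 0.59, edgeR), and without that library the log2 fold change of *Col4a1* changed from 0.26 to -0.19. *Col1a1*, *Col1a2* and *Col3a1* stayed below 2 CPM in every library and were not called (adjusted p 0.40, 0.89 and 0.90).

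**Figure D5:**
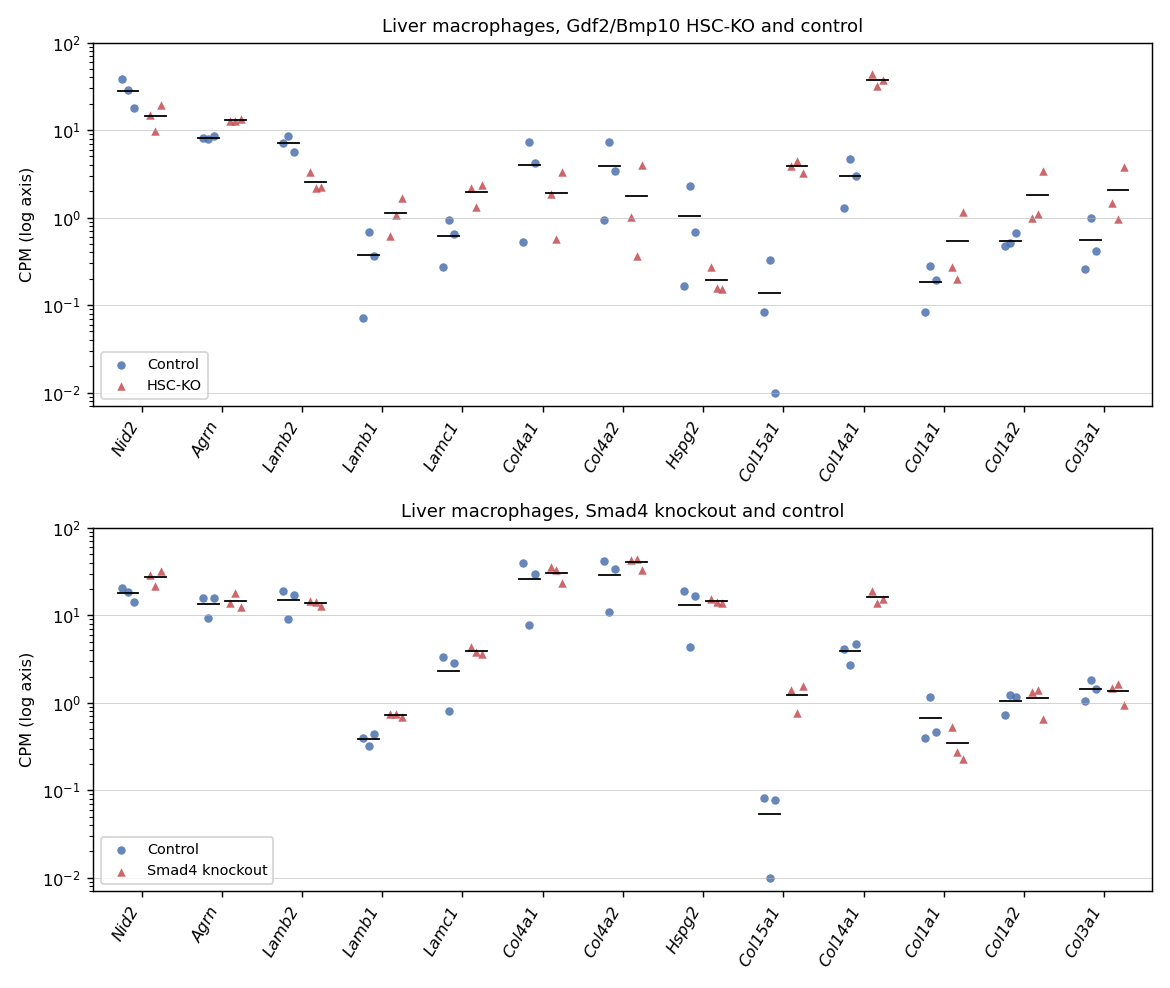
Levels of 13 of the genes in sorted liver macrophages in CPM (log axis, a level of 0 drawn at 0.01), for the HSC-KO comparison above and the *Smad4* comparison below (points, libraries, bars, means of 3; circles, control, triangles, knockout). *Col14a1* and *Col15a1* are higher in all knockout libraries in both panels, whereas *Col4a1*, *Col4a2* and *Hspg2* in the lower panel have 1 low control library.

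8 of the 59 genes had too few counts for a test in every comparison: *Col2a1*, *Col6a4*, *Col9a1*, *Col10a1*, *Col11a1*, *Col19a1*, *Col22a1* and *Col26a1*. *Col15a1* was the one gene called in all 4, higher each time, with control levels at or near 0 in ECs and in both macrophage sorts but not in liver. Its upstream sequence is shown with that of *Col13a1*, the gene called lower in both ECs and liver, each as the 250 bases before the RefSeq start (GRCm38.p6), 5′ to 3′ on the gene's strand.
*Col15a1*, chr4:47207762-47208011, plus strand: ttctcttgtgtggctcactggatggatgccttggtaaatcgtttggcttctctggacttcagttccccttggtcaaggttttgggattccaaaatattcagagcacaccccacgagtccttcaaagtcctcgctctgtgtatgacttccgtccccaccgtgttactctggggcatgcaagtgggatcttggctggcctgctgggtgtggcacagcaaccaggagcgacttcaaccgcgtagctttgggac
*Col13a1*, chr10:61979109-61979358, minus strand: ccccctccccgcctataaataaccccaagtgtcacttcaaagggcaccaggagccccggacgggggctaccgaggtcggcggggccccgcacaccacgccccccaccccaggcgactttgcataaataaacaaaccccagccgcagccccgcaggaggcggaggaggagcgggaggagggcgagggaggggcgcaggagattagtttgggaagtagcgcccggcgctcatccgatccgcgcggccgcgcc
Neither window holds any of the 4 motifs on either strand, so no letters are in capitals. Bases G and C make up 53.6% of the *Col15a1* window and 68.8% of the *Col13a1* window.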

How the data were processed

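RNA was sequenced from sorted ECs, sorted liver macrophages and whole liver (24 libraries, 3 per group, edgeR fits of 6 libraries each and 12 for the EC and liver comparison). The deposited values are raw counts per gene. Per the labels and the study's methods the authors used FastQC, HISAT2, featureCounts and DESeq2 with mm10 (GRCm38), and the strand setting is not given in the sources used here. Counts were tested as deposited in edgeR 4.0.16 (R 4.3.3) by quasi-likelihood, after filterByExpr (minimum count 10) and TMM scaling, and p-values were adjusted by Benjamini-Hochberg over all genes tested. Calls needed an adjusted p under 0.05 together with a log2 fold change past 1 or -1. Alternatives were DESeq2 1.42.0, RLE factors, no scaling beyond library size, no filter but 1 count, leaving out each library, a replicate block and an *Xist* covariate. RPKM used exon lengths from GENCODE vM21. The fits were tested on simulated counts.

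The genes and lists were chosen with earlier results of these data known. Named were each gene called, in ECs and liver also those with a mean of at least 10 CPM in a group, genes of the lists only where called in ECs or liver, and *Col4a1*, *Col4a2*, *Col1a1*, *Col1a2* and *Col3a1* throughout. Others were chosen after their values were seen (*Col4a5*, *Col4a6*, *Lama1*, *Lamb3* and *Lamc3* in ECs, *Lama3*, *Lama4*, *Lamc3* and *Col4a4* in liver, *Col6a2* in ECs, *Nid2* in macrophages, *Dag1*, *Itgb1*, *Itgb4* and the markers named). Values without HSC-KO EC replicate 1 and HSC-KO liver replicate 3 were singled out after seeing the data. 3 mouse numbers occur in the labels of both an EC and a macrophage library of the HSC-KO comparisons. P-values measure the spread between these libraries. Whether replicate numbers pair the samples was not established. Deviations from group means correlated at 0.103, 0.117 and 0.033 between same-numbered control and HSC-KO ECs. The values were 0.015, 0.049 and 0.013 in liver and 0.162, -0.107 and 0.06 in macrophages of the HSC-KO comparison. Depth was 60911527 to 110879155 counts per library, and a floor of 3 counts covers counting error only.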

Additional observations from a re-analysis of the deposited data

Results flagged for a closer look

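For 7 genes the HSC-KO effect differed between ECs and whole liver in a test of the difference itself (edgeR interaction term over 12 libraries, adjusted over all genes). The log2 fold change in ECs minus that in liver was 7.62 for *Col15a1*, 3.53 for *Lamb1*, 2.75 for *Col18a1*, 2.52 for *Col8a1*, 2.38 for *Nid2*, 1.19 for *Lamc1* and -2.37 for *Col6a2*. *Lamb1* and *Col15a1* rose in both, *Nid2*, *Col18a1* and *Col8a1* rose in ECs only by the call, and *Lamc1* rose in ECs and was just under the fold cut-off in liver. For *Col6a2* the difference was called in 4 of 17 alternative fits, and its EC level was under 2 CPM. Cell composition, age and RNA extraction differ between the sorts and whole liver, and their part in these differences was not tested.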

How the results depend on the processing

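The 13 genes called higher in ECs were the same in all 12 alternative fits, and those called lower numbered 2 to 4 when single libraries were left out. In liver the count called higher was 3 to 10 without single libraries and the count called lower 0 to 1. The replicate block gave 3 and 0, ending the calls of *Col4a1*, *Col4a2*, *Col6a1*, *Col28a1* and *Col13a1* (adjusted p 0.060, 0.057 and 0.052 for the first 3), DESeq2 gave 12 and 2, and the *Xist* covariate 10 higher. Whether the replicate numbers pair the samples was not established. In liver the *Xist* covariate mostly sets HSC-KO replicate 3 apart. In HSC-KO macrophages the counts were 2 to 3 higher and 1 to 4 lower without single libraries, and 6 and 2 with DESeq2. In *Smad4*-deleted macrophages they were 1 to 2 higher and 0 to 0 lower. For the EC and liver difference, 5 to 6 were called higher in ECs and 0 to 4 lower without single libraries, and the lower count was 4 with DESeq2 and 0 with library size alone, with no filter but 1 count, and with the replicate block.

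Direction changed only for genes that were not called. With library size alone the log2 fold change was 0.10 for *Col1a2*, 0.19 for *Col5a2* and 0.06 for *Nid1* in ECs, -0.09 for *Agrn* and -0.03 for *Col18a1* in liver and 0.05 for *Col3a1* in *Smad4*-deleted macrophages. That scaling moved the median of all genes by 0.30 in ECs and -0.12 in liver from about 0, and EC folds are read relative to it. Under the replicate block *Col1a2* was at 0.21 in ECs and *Col27a1* at -0.19 in liver, and under the *Xist* covariate *Col27a1* was at -0.83 and *Lama4* at 0.22. Without single libraries the ranges were -0.14 to 1.23 (*Col1a1*), -0.63 to 0.56 (*Col1a2*) and -1.14 to 0.30 (*Col5a2*) in ECs, -0.07 to 0.13 (*Agrn*), -0.37 to 0.21 (*Lama4*) and -0.81 to 0.45 (*Col27a1*) in liver, and -0.09 to 0.40 (*Col1a2*), -0.30 to 0.09 (*Col3a1*) and -0.19 to 0.70 (*Col4a1*) in *Smad4*-deleted macrophages. The cause was not tested. Depth limits the scarce chains: the shallowest library held 60911527 counts, and 3 counts are the floor.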
